A study of Mus musculus with 2 samples.

Results

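The epithelial protease inhibitors described here are 6 genes, Serpinb1a, Serpinb6a, Serpinb6b, Serpinb9, Slpi and Spink5, of the 27998 genes in the count matrices of control and IL-1β-treated lung organoids. They were chosen by name from genes whose levels differ between cell types or between the 2 libraries in these same data, so their levels are given as a description and without a test. All 6 symbols stand on 1 row each in both matrices. Organoids were grown from alveolar type 2 (AT2) cells, the surfactant-making cells of the alveolus, isolated from tamoxifen-treated SPCCreERT2;R26RtdTomato mice of the C57BL/6 strain, in co-culture with stromal cells of the lung. In these mice the Cre recombinase is driven from the gene of surfactant protein C (SPC, gene symbol Sftpc), so that the cells labeled at the start are those that expressed Sftpc at the time of tamoxifen. One culture condition received PBS (control) and the other IL-1β, and both shared the same mouse genotype and the same kind of stromal cells. There is 1 library of droplet-based single-cell RNA-seq per condition. The spread between cultures is therefore unknown, and every interval below is a 95% interval of the counting error alone.

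Serpins of clade B work inside the cell. They carry a reactive loop that a serine protease cleaves, upon which the protease is trapped in a stable complex. In leukocytes and in epithelia they are known for protecting the cell from proteases that leak from granules. Slpi and Spink5 are secreted and block proteases without being consumed: Slpi, the secretory leukocyte protease inhibitor, has domains of the whey acidic protein type and acts on neutrophil elastase and cathepsin G in airway fluid, whereas Spink5 is a string of Kazal domains that is cleaved into fragments and is best known for holding kallikreins of the skin in check.

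The 4 clade B members lie in a cluster on chromosome 13 of the GRCm38 mouse genome (GENCODE M21). Serpinb1a (ENSMUSG00000044734) is at 32842092 to 32851185 on the minus strand, Serpinb6b (ENSMUSG00000042842) at 32965209 to 32979067 and Serpinb9 (ENSMUSG00000045827) at 33003250 to 33017957 on the plus strand, and Serpinb6a (ENSMUSG00000060147) at 33917918 to 34002794 on the minus strand. Serpinb6b ends 24.2 kb before Serpinb9 begins. The cluster holds 15 clade B genes of the count matrices over 1.16 Mb. The 11 that are not members had at most 82 UMIs each over both libraries, and 4 of them had none, whereas Serpinb6a had 4962 control and 7022 IL-1β UMIs over all barcodes. The library reads begin near the 3′ ends of transcripts, and over windows of 50 bases in the last 500 bases of each transcript, 4.59% of the windows of Serpinb1a, 1.22% of those of Serpinb6a and 5.47% of those of Serpinb6b also occur in another gene, among them Serpinb1b, Serpinb1c and Serpinb6c. None of the windows of Serpinb9, Slpi or Spink5 does.

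The sequences shown are the promoters of Serpinb6b and Serpinb9, neighbors whose levels varied alike over the cell groups described below, and that of Slpi, the member with the largest ratio between the libraries in stromal cells. They are RefSeq sequences (GRCm38.p6) of 250 bases before to 50 bases after the annotated start, and the RefSeq table held an entry for 4 of the 6 members. Serpinb6b is at chr13:32965011-32965310 (plus strand), Serpinb9 at chr13:33004291-33004590 (plus strand) and Slpi at chr2:164356458-164356757 (minus strand). The RefSeq starts differ from the GENCODE gene limits, and the promoters of Serpinb9 and Slpi lie inside those limits. Capitals mark matches, on either strand, to any of 5 motifs: GGGA and TTTCC with 1 base between them (a form of the NF-κB site), TGANTCA (AP-1), TTCNNNGAA (STAT), GAAA and GAAA with 2 bases between them (interferon response element) and GGAATG (TEAD).
Serpinb6b: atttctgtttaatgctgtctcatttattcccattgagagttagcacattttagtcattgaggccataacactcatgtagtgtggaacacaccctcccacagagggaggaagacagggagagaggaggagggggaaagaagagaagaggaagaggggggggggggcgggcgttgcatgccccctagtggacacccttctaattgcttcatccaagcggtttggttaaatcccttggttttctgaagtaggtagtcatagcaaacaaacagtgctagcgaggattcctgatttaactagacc
Serpinb9: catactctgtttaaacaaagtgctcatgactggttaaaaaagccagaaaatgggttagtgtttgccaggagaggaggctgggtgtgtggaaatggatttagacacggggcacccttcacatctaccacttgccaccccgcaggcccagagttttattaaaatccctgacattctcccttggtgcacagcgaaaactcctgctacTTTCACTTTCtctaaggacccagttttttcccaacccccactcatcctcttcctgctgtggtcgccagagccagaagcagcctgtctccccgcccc
Slpi: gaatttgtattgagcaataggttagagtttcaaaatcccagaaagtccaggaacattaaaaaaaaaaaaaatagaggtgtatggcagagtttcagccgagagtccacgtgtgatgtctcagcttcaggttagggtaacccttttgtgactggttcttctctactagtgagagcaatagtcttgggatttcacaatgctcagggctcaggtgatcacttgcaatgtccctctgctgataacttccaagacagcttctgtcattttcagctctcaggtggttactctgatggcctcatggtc
The promoter of Serpinb9 held 1 match, to the interferon response element on the minus strand, beginning 46 bases before the start, and this motif was found in 3.44% of the 32851 promoters of that length. Those of Serpinb6b and Slpi held no match to any of the 5. Serpinb6a also had entries, whose sequences are not shown. Its promoter at chr13:34002745-34003044 (minus strand) held matches to the STAT motif beginning 77 bases before and 20 bases after the start. It also matched the interferon response element 84 bases and the TEAD motif 215 bases before the start. Its promoter at chr13:33936034-33936333 held no match. Over all promoters, the NF-κB form was found in 0.411%, the AP-1 motif in 7.81%, the STAT motif in 8.30% and the TEAD motif in 14.7%.

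The control library held 2101 barcodes and 33965848 UMIs (unique molecular identifiers, each standing for 1 captured transcript), and the IL-1β library 3066 barcodes and 41220175 UMIs, with at least 4605 UMIs in every barcode. Of the cells kept, 1284 control and 2580 IL-1β cells were epithelial and 780 and 478 were stromal. Cells were grouped by marker genes into AT2-lineage cells (1047 control and 1881 IL-1β, which takes in resting, primed and cycling AT2-like clusters), AT1-like cells of the gas-exchanging type (225 and 7), DATP-like cells, which carry the markers of damage-associated transient progenitors (0 and 236 in this clustering), and stromal cells. Other clusterings named up to 78 control cells DATP-like. The AT2-lineage clusters split along the libraries. Those named resting held 516 and 432 control cells but 2 and 0 IL-1β cells. Those named primed held 639, 589, 365 and 282 IL-1β cells but 12, 4, 0 and 0 control cells. A ratio in AT2-lineage cells therefore compares largely different clusters of the 2 libraries. A cluster of 11 control and 412 IL-1β cells carried markers of AT1 cells and of DATPs together and is called here by its genes Hopx and Cldn4. Another cluster, of 1 control and 35 IL-1β cells, was led by Ccl20, had Spib among its top 10 genes, and is called by Ccl20 and Spib. Values of these 2 clusters are those of their IL-1β cells unless control cells are named. The stromal marker Col1a2 stood at 1476 UMIs per 1000000 UMIs (CPM) in control and 1469 CPM in IL-1β stromal cells against 30.3 and 31.8 CPM in AT2-lineage cells, and Ager, an AT1 gene, at 13369 CPM in control AT1-like cells against 1087 CPM in control AT2-lineage cells. Sftpc was found in 100% of stromal cells of both libraries, at 3.66% (control) and 6.13% (IL-1β) of its level in AT2-lineage cells, and the part of RNA from other cells in the stromal values was not tested. The libraries shared 11 barcodes.

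**Figure D1:**
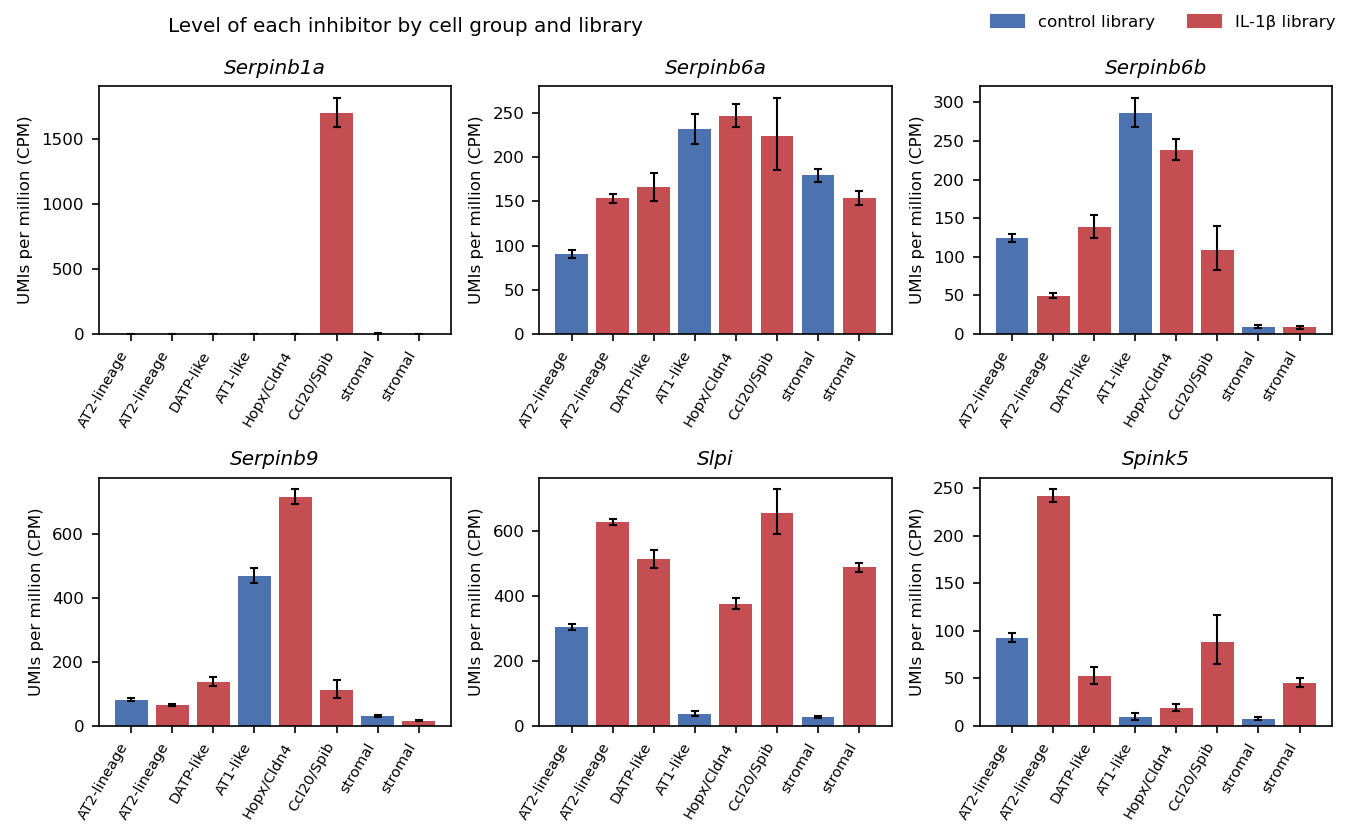
Summed UMIs per 1000000 UMIs (CPM, y axis) of each of the 6 inhibitors in each cell group with at least 30 cells (x axis), with control bars in blue and IL-1β bars in red, and bars of 95% Poisson intervals that cover counting error only. Serpinb1a stood at 1704 CPM in the Ccl20/Spib cells and at no more than 4.16 CPM in any other group, Serpinb9 was highest in the Hopx/Cldn4 cells, and Spink5 in IL-1β AT2-lineage cells.

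Serpinb1a, the mouse counterpart of the inhibitor of neutrophil elastase, proteinase 3 and cathepsin G, was found in almost no cell of the cultures outside the Ccl20/Spib cells. In the IL-1β library, 929 of its 1005 UMIs (92.4%) lay in those 35 cells, which are 1.36% of the epithelial cells of that library, at 1704 CPM (1596 to 1817). The other 3023 cells of the library held 76 UMIs in 69 cells, with no more than 6 UMIs in any of them. In control AT1-like cells Serpinb1a was at 0 of 225 cells, which allows a share of cells with a UMI of up to 1.33%, and in control AT2-lineage cells it was at 7 UMIs in 1047 cells (0.445 CPM, 0.179 to 0.917).

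Within the Ccl20/Spib cells, Serpinb1a was very unevenly spread. The highest cell held 540 UMIs, or 16196 CPM, the next held 114, and 10 of the 35 cells held 10 or more. It was found in 16 of the 35 cells, or 45.7% (28.8 to 63.4), and the median cell held 0. The single control cell of the cluster held 29 UMIs, which puts it seventh in order among the cells of both libraries. One cell held 58.1% of the UMIs of the IL-1β cells of this cluster, and without that cell the level was 760 CPM (686 to 839). The cells had 15139 UMIs in the median, Epcam, the epithelial surface marker, in 100% of them, and Sftpc at 7748 CPM against 70575 CPM in the AT2-lineage cells of the same library. Of 6 immune marker genes, 3 were at 0 in these cells, and of 9 neutrophil marker genes 8 were at 0. These zeros carry little information, since Ptprc, Tyrobp and Laptm5 had 5, 3 and 1 UMIs in the whole IL-1β library. DATP-like and Hopx/Cldn4 cells of that library also had 3 immune genes at 0. The immune list summed to more here than in IL-1β AT2-lineage cells (40.2 CPM) and to less than in DATP-like cells (83.3 CPM). Clec12a, Il4i1 and Pglyrp1 were among the top 10 genes, and an immune character was not tested. In stromal cells, Serpinb1a was at 4.16 CPM (3.13 to 5.41) in the control and 2.42 CPM (1.54 to 3.63) with IL-1β, a ratio of 0.582 (0.342 to 0.963). Within control stroma 35 of its 55 UMIs were in the 111 cells of a cluster led by Acta2 and Tagln, genes of contractile cells, at 15.3 CPM.

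**Figure D2:**
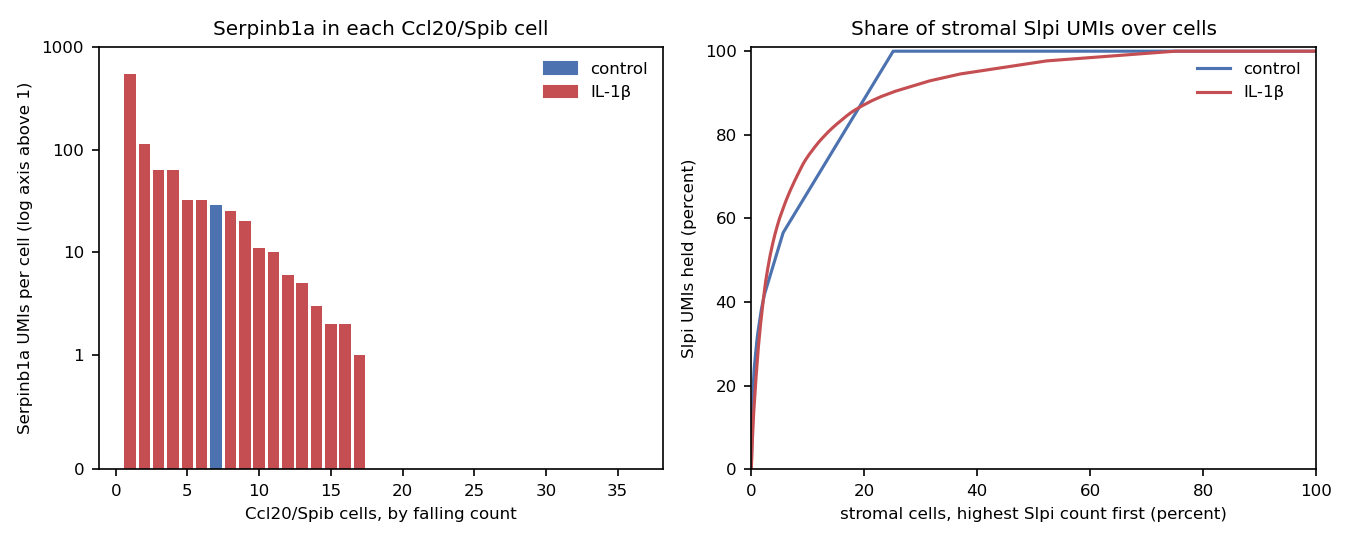
Left, Serpinb1a UMIs in each of the 36 Ccl20/Spib cells, in falling order (y axis, log scale above 1), with the control cell in blue. Right, the percentage of all stromal Slpi UMIs (y axis) held by the stromal cells with the highest counts (x axis), for each library, where the 10% of IL-1β stromal cells with the most Slpi held 74.9% of its UMIs.

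Serpinb6a, an intracellular inhibitor of cathepsin G and of trypsin-like proteases, was found in every group shown. It was in 66.1% (63.1 to 69.0) of control and 79.5% (77.6 to 81.3) of IL-1β AT2-lineage cells, in 84.4% of control AT1-like cells and in 82.7% of control stromal cells. Over groups of at least 30 cells its levels ran from 90.8 CPM (86.1 to 95.6) in control AT2-lineage cells to 247 CPM (234 to 260) in the IL-1β Hopx/Cldn4 cells. Outside these groups, the 11 control Hopx/Cldn4 cells stood higher, at 369 CPM (279 to 480). From the highest group down, the Hopx/Cldn4 cells, the control AT1-like cells at 232 CPM (215 to 249), the Ccl20/Spib cells at 224 CPM (186 to 267), the control stromal cells at 180 CPM (172 to 187), and the IL-1β DATP-like (166 CPM), stromal (154 CPM) and AT2-lineage cells (153 CPM) each had an interval that overlapped that of the next. The control AT2-lineage cells stood clear below all of them. In AT2-lineage cells the level was 1.69-fold (1.59 to 1.80) higher in the IL-1β library, and in stromal cells it was 0.858-fold (0.803 to 0.916) of the control level.

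Serpinb6b, a close relative of Serpinb6a, was an epithelial gene in these cultures, and within the epithelium it was highest in the cells with AT1 markers. It stood at 287 CPM (268 to 306) in control AT1-like cells, 239 CPM (226 to 252) in the Hopx/Cldn4 cells, 138 CPM (124 to 154) in DATP-like cells and 124 CPM (119 to 130) in control AT2-lineage cells, the last 2 with overlapping intervals. The Ccl20/Spib cells, at 108 CPM (82.4 to 140), overlapped both. IL-1β AT2-lineage cells were below all of these, at 49.7 CPM (46.8 to 52.7), and control and IL-1β stromal cells stood at 9.60 and 8.64 CPM. In AT2-lineage cells the gene was at 0.401-fold (0.372 to 0.431) of its control level, the lowest of the 6 in these cells. With other clusterings its log2 ratio went as low as -1.98, against -1.32 here. It was found in 71.1% (68.2 to 73.8) of control AT2-lineage cells and 36.8% (34.7 to 39.1) of IL-1β ones, and with every cell thinned to 4000 UMIs these shares were 34.0% and 16.9%. Median depths were 14332 and 11360 UMIs. In stromal cells, where its level was lowest, the shares (median depths of 15638 and 14828 UMIs) were 11.9% and 8.58%.

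Serpinb9, the intracellular inhibitor of granzyme B, was, as Serpinb6b was, highest in the cells with AT1 markers and lowest in stroma. The IL-1β Hopx/Cldn4 cells stood highest at 716 CPM (693 to 739), and 65.2% of the UMIs of Serpinb9 in the IL-1β library were in these 412 cells. Control AT1-like cells followed at 468 CPM (445 to 492), where the gene was in 96.0% (92.5 to 98.2) of cells. The 11 control Hopx/Cldn4 cells stood below both, at 284 CPM (205 to 382). DATP-like cells at 137 CPM (122 to 152) and Ccl20/Spib cells at 112 CPM (85.6 to 144) had overlapping intervals, and AT2-lineage cells were lower, at 80.9 CPM (76.5 to 85.5) in the control and 65.1 CPM (61.8 to 68.5) with IL-1β. Stromal cells were lowest, at 29.4 CPM and 15.4 CPM. The gene was at 0.805-fold (0.746 to 0.868) of its control level in AT2-lineage cells and 0.523-fold (0.429 to 0.634) in stromal cells. The AT2-lineage log2 ratio ran from -1.16 to -0.14 under other settings of that class, and the cause was not tested. Over all epithelial cells its log2 ratio was 0.32, a comparison in which the IL-1β library holds 412 and the control 11 Hopx/Cldn4 cells.

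The Hopx/Cldn4 cells of the IL-1β library and the AT1-like cells of the control library share AT1 markers, but they are different clusters and the AT1 list was lower in the first (9857 against 18585 CPM summed over 9 genes) and the DATP list higher (2240 against 991 CPM over 6 genes). The values are therefore set side by side as those of 2 clusters, each in a different library. The 11 control Hopx/Cldn4 cells, too few for a ratio, had Serpinb9 at 284 CPM and Slpi at 66.0 CPM. Serpinb9 was 1.53-fold (1.44 to 1.62) and Slpi 10.1-fold (8.41 to 12.3) higher in the Hopx/Cldn4 cells, Serpinb6b was 0.833-fold (0.765 to 0.907), and the interval for Serpinb6a (1.07-fold, 0.973 to 1.17) held 1. Slpi and Spink5 (2.11-fold, 1.38 to 3.30) were past 2-fold of the 5 members with enough UMIs, where over 9358 genes 5.17% were at least 2-fold higher and 3.88% at least 2-fold lower. Spink5 was low in both, at 8.99 CPM in control AT1-like and 18.9 CPM in Hopx/Cldn4 cells. Stromal cells of the same libraries had it at 7.41 and 45.3 CPM, and the part of RNA from other cells was not tested. Its log2 ratio in AT1-like cells was 0.28 at a resolution of 2.0 and 0.87 with separate clustering. Without the cells with the highest doublet scores it was 2.98. The 7 IL-1β cells in the AT1-like cluster were too few for a ratio. Under other clusterings and cell filters the IL-1β library held 5 to 395 AT1-like and 102 to 948 DATP-like cells. The control library held up to 78 DATP-like cells, with each library clustered separately. The DATP-like log2 ratios were then Serpinb6a 0.087, Serpinb6b 0.387, Serpinb9 0.906, Slpi 0.509 and Spink5 -1.10.

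**Figure D3:**
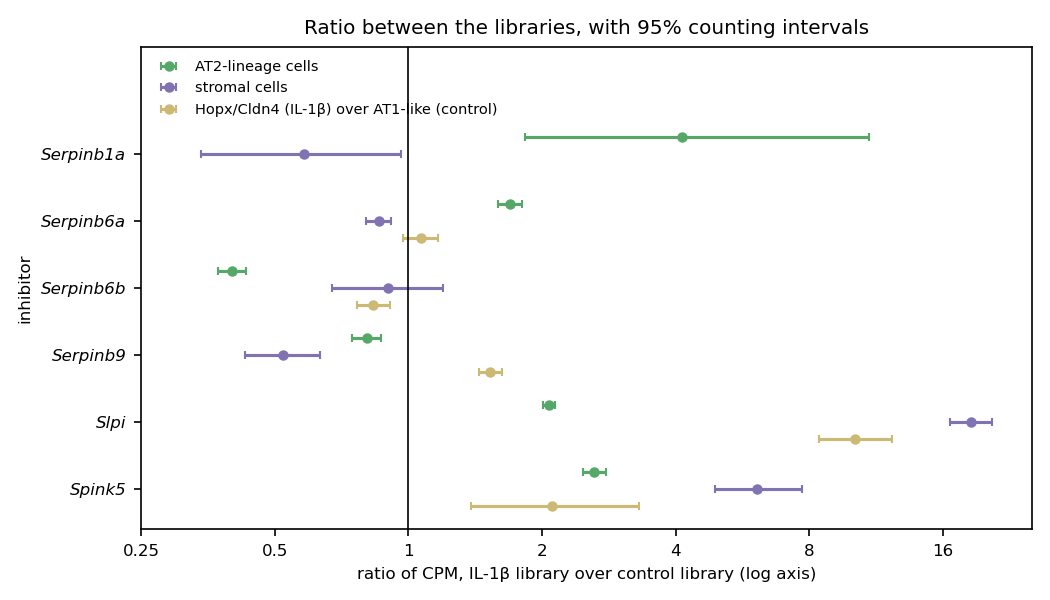
Ratio of the CPM of each inhibitor in the IL-1β library over the control library (x axis, log scale) within AT2-lineage cells (green), within stromal cells (purple) and between IL-1β Hopx/Cldn4 cells and control AT1-like cells (yellow), with exact 95% intervals that cover counting error only. Slpi and Spink5 lie to the right of 1 in all 3 comparisons, and Serpinb6b in AT2-lineage cells lies lowest. Serpinb1a, at 0 UMIs in control AT1-like cells, has no ratio there.

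Slpi was in AT2-lineage cells of both libraries and was about 2-fold higher with IL-1β, while in stromal cells it was near its lowest in the control and near the epithelial level with IL-1β. In AT2-lineage cells it stood at 304 CPM (295 to 313) in the control and 629 CPM (619 to 640) with IL-1β, a 2.07-fold (2.00 to 2.14) difference, and it was found in 70.7% (67.8 to 73.4) and 92.5% (91.2 to 93.7) of cells, or 48.0% and 76.4% after thinning to 4000 UMIs. DATP-like cells stood at 513 CPM (486 to 543), Ccl20/Spib cells at 658 CPM (592 to 730) and Hopx/Cldn4 cells at 376 CPM (360 to 393). Control AT1-like cells were far below, at 37.2 CPM (30.8 to 44.5), above control stroma alone among groups of at least 30 cells. The 11 control Hopx/Cldn4 cells had Slpi at 66.0 CPM (31.6 to 121). In GENCODE M21 the gene (ENSMUSG00000017002) lies on chromosome 2 at 164354070 to 164389095 on the minus strand, limits that enclose the RefSeq promoter shown.

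In stromal cells Slpi stood at 26.5 CPM (23.8 to 29.4) in the control and 489 CPM (475 to 503) with IL-1β, 18.5-fold (16.6 to 20.7) apart, the largest ratio of the 6 members in AT2-lineage or stromal cells. The stromal level was 8.71% of the AT2-lineage level in the control and 77.7% with IL-1β, whereas Sftpc was at 3.66% and 6.13%, Cldn18 at 12.1% and 9.16%, Lyz2 at 3.36% and 6.04% and Epcam at 5.05% and 7.13%. The share of stromal cells with an Slpi UMI was 25.1% (22.1 to 28.3) in the control and 74.9% (70.8 to 78.7) with IL-1β, or 7.31% and 44.4% after thinning. Most of the RNA lay in few cells. Of the 478 IL-1β stromal cells, 84 (17.6%) held 10 or more Slpi UMIs, and these held 85.2% of the gene's stromal UMIs, up to 349 in 1 cell. In the control, 4 of 780 stromal cells held 10 or more. With Louvain clustering, 42 of the 84 cells fell in a cluster named immune, and the stromal log2 ratio of Slpi was 2.78 against 4.21. Of the 6 immune marker genes, Ptprc, Tyrobp, Laptm5, Fcer1g and Lst1 had 5, 3, 1, 11 and 55 UMIs in the whole IL-1β library. Cd68, the other gene of that list, had 1420 UMIs in 1007 cells of that library.

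The 84 IL-1β stromal cells with much Slpi were chosen by their Slpi count, so their Slpi level is fixed by that choice and the part of RNA from other cells was not tested. Slpi stood at 1870 CPM in them, and the other 394 held 686 of the 4645 stromal UMIs, while Sftpc stood at 4970 and 4144 CPM, Epcam at 21.7 and 18.2 CPM, and the fibroblast genes Col1a2 at 1093 and 1577 CPM and Dcn at 3943 and 6134 CPM. Spink5 stood at 30.2 CPM in the cells with much Slpi and at 49.6 CPM in the others. The genes with the highest ratios in these cells over the other IL-1β stromal cells, chosen after the values were seen, were Dkk2, a Wnt regulator (56.2 against 4.61 CPM), Areg, an EGF receptor ligand (353 against 34.8 CPM), Crispld2 (35.9 against 3.66 CPM) and Il11, a cytokine of the IL-6 family (349 against 40.8 CPM). The median depths were 22192 UMIs in the cells with much Slpi and 12942.5 in the others. Of 9 neutrophil marker genes, 5 were at 0 in control and 4 in IL-1β stromal cells, and the list summed to 10.6 and 83.5 CPM. Of this list, S100a8 stood at 161 CPM in the cells with much Slpi and at 29.4 CPM in the other IL-1β stromal cells, and Camp at 35.9 and 20.9 CPM. The other genes of the list were not split in this way, and the part of these genes in the Slpi values was not tested. In a cluster of stromal cells with Acta2 and Tagln, 16 cells of the IL-1β library had Slpi at 46.6 CPM (29.5 to 69.9).

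Spink5 was for the most part a gene of AT2-lineage cells, which held 91.2% of its UMIs in the control and 88.3% with IL-1β. It stood at 92.4 CPM (87.7 to 97.3) in control and 242 CPM (236 to 249) in IL-1β AT2-lineage cells, 2.62-fold (2.47 to 2.78) higher in the latter. The Ccl20/Spib cells at 88.0 CPM (64.9 to 117) could not be told apart from control AT2-lineage cells, and DATP-like cells at 52.2 CPM (43.5 to 62.0) and IL-1β stromal cells at 45.3 CPM (41.1 to 49.8) had overlapping intervals. The Hopx/Cldn4 cells stood at 18.9 CPM (15.4 to 23.0) and control AT1-like cells at 8.99 CPM (6.02 to 12.9), so that the gene was low in both clusters with AT1 markers. It was found in 51.3% (48.2 to 54.4) of control and 64.6% (62.4 to 66.8) of IL-1β AT2-lineage cells, or 26.3% and 43.3% after thinning. In stromal cells the level was 7.41 CPM in the control and 45.3 CPM with IL-1β, 6.11-fold (4.90 to 7.69) apart, and the stromal level was 8.02% and 18.7% of the AT2-lineage level. That share was above that of Sftpc in both libraries, and above that of Cldn18 in the IL-1β library but not in the control. Spink5 (ENSMUSG00000055561) is on chromosome 18 at 43963235 to 44022501 on the plus strand.

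Nearly all AT2-lineage cells of the IL-1β library fell into 4 clusters that differed among themselves in these genes. The clusters are called by their 2 leading genes that are not members. Slpi was itself among the top 10 genes of the Slc26a4/Cd14 cluster, and Spink5 among those of the Gstm1/Gjb1 cluster. Cells led by Slc26a4 and Cd14 (639 cells) had Slpi at 834 CPM (813 to 855) but Spink5 at 81.7 CPM (75.2 to 88.6), near its control level. Cells led by Gstm1 and Gjb1 (589 cells) had Spink5 at 384 CPM (370 to 399) and Slpi at 480 CPM (464 to 496). Cells led by Cxcl5 and Orm1 (282 cells) had both, with Slpi at 749 CPM (722 to 777) and Spink5 at 317 CPM (300 to 336), and cells led by BC030867 and Trf (365 cells) had Slpi at 409 CPM and Spink5 at 200 CPM (186 to 214). Slpi and Spink5 were thus highest in different clusters. Serpinb6b was below the control AT2-lineage level in all 4 clusters, at 24.2 to 33.9 CPM in 3 of them and at 90.8 CPM (83.9 to 98.1) in the Slc26a4/Cd14 cells. Serpinb9 was below its control level in 3 of the 4, at 31.7 to 35.6 CPM, and stood at 132 CPM (124 to 141) in the Slc26a4/Cd14 cells, above every control AT2-lineage cluster of 50 or more cells.

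In the control, cells led by Bex2 and Cst8 (516 cells), by Cbr2 and Bex2 (432 cells) and by the cell cycle gene Ube2c (83 cells) made up most of the lineage. Slpi stood at 329 CPM (316 to 342), 220 CPM (208 to 232) and 282 CPM (257 to 308) in them, and Spink5 at 108, 70.0 and 94.4 CPM. Serpinb6b ran from 108 to 147 CPM over these clusters and Serpinb9 from 57.2 to 109 CPM. All of these Slpi values lay below those of the 4 IL-1β clusters. A group of 12 control cells in the Slc26a4/Cd14 cluster had Slpi at 1753 CPM (1584 to 1935), above the 639 IL-1β cells of the same cluster.

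**Figure D4:**
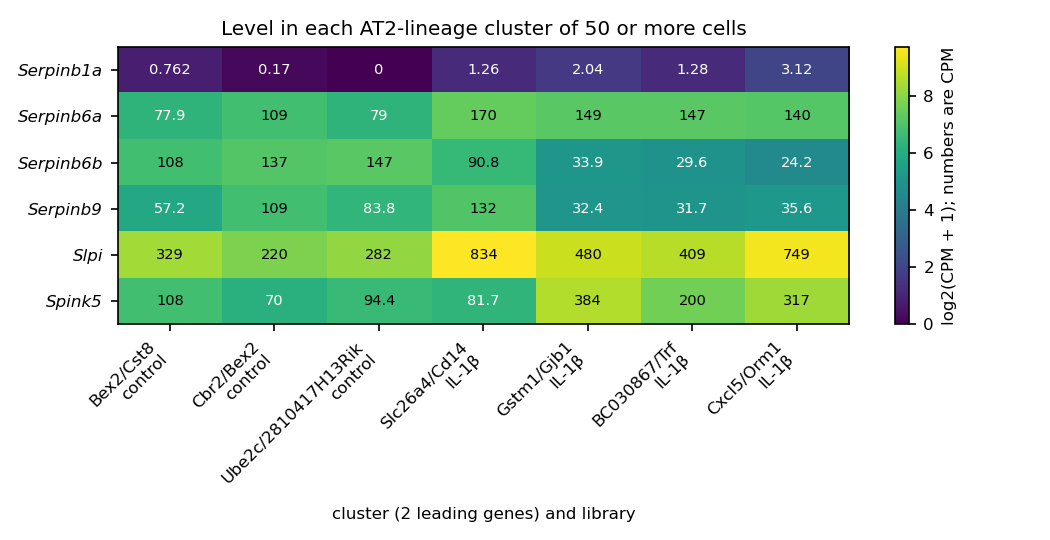
CPM of each inhibitor (rows, printed as numbers, color on a log2 scale) in each AT2-lineage cluster with at least 50 cells of a library (columns, named by 2 leading genes that are not members, with the library). Serpinb6b and Serpinb9 are lowest in the last 3 IL-1β clusters, and Spink5 is highest in the Gstm1/Gjb1 cells.

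Set beside all genes, Slpi and Spink5 were the members past 2-fold higher in AT2-lineage cells of the IL-1β library, where 7.33% of 11495 genes with at least 50 UMIs were at least 2-fold higher, and Serpinb6b was the 1 member past 2-fold lower, where 4.78% were. Serpinb1a, with 48 UMIs in all, was below that minimum, so that 5 of the 6 members were counted. In stromal cells, where all 6 had enough UMIs, Slpi and Spink5 were again at least 2-fold higher, against 4.34% of 11321 genes, and none was at least 2-fold lower, against 11.4%. The median log2 ratio over all genes was 0.07 in AT2-lineage and -0.32 in stromal cells. Slpi lay just past 2-fold in AT2-lineage cells, and its log2 ratio was below 1 under 7 of the alternatives, down to 0.75. Since the members were chosen on these levels, nothing is read from these shares.

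Over the 7 groups of class and library with at least 50 cells, the members fell into 2 pairs by the likeness of their levels on a log2(CPM + 1) scale. Serpinb6b and Serpinb9 had a Pearson correlation of 0.92, and Slpi and Spink5 one of 0.82. Over 15 groups of cluster and library with at least 20 cells, a grouping added after the data were seen, these were 0.88 and 0.85. The groups share libraries and their depth, and the values are given as a description. The genes most like each member were Clcn2, Acsf2 and Lca5l for Serpinb1a, Hps6, Snupn and Rrp1 for Serpinb6a, Rnf114, Ppp2r5a and B3gnt5 for Serpinb6b, Mdfic, Paip2 and Trappc12 for Serpinb9, Tbc1d15, N4bp3 and Prdx4 for Slpi, and Arg2, Csf2rb and Gjb1 for Spink5. The first of each had a correlation of 0.98 (Slpi), 0.97 (Spink5), 0.99 (Serpinb1a and Serpinb6a) or 1.00 (Serpinb6b and Serpinb9). With 7 groups, the 100th of 11458 genes still reached 0.97 for Serpinb6b and for Serpinb9, above the 0.92 between these 2 members. It reached 0.795 for Slpi and 0.823 for Spink5, against 0.819 between those 2. The 7 groups leave out the Ccl20/Spib cells. In the 7 groups Serpinb1a lay between 0 and 4.16 CPM, so its ranking there rests on few counts. It had 0 UMIs in control AT1-like, 3 in DATP-like and 7 in control AT2-lineage cells. With the Ccl20/Spib cells included, among the 15 groups, the genes most like Serpinb1a were Relt, Ehd1 and Ccl9 (0.93, 0.92 and 0.91). Serpinb1a stood at 1704 CPM in the Ccl20/Spib group and at no more than 15.3 CPM in any other of the 15. The genes most like Slpi were then Ctsc, the protease that activates granule serine proteases, Rab15 and Arg2 (0.94, 0.93 and 0.92).

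The leukocyte proteases that Serpinb1a, Serpinb9 and Slpi are known to block had few or no UMIs in the cultures, with 1 exception. Of 12 genes of neutrophil and lymphocyte serine proteases and their partners, 9 had no UMI in either library, among them Ctsg and Gzmb, which at this depth allows up to 0.0917 CPM in the control and 0.0739 CPM with IL-1β. Elane, neutrophil elastase, had 1 UMI in the control and 4 with IL-1β. Gzme, a granzyme, had 2 and 16 UMIs. The exception was Prtn3, proteinase 3, with 207 UMIs in 163 control cells and 14 UMIs in the IL-1β library. Of the control UMIs, 195 were in stromal cells, at 14.7 CPM (12.7 to 17.0) against 1.16 CPM (0.578 to 2.07) in IL-1β stroma. A list of lysosomal cathepsins, which takes in the AT2 marker Napsa, summed to 3753 CPM over 11 genes in the control and 6342 CPM with IL-1β. These are sums over all cells of libraries that differ in their shares of epithelial and stromal cells.

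In AT2-lineage cells, 12 of the 43 other inhibitor and protease genes with at least 50 UMIs were at least 2-fold higher in the IL-1β library and 4 at least 2-fold lower, of 133 genes listed, with a median log2 ratio of 0.48. Of 9 secreted serpins, 5 were past 2-fold higher, 3 lay between and 1 was past 2-fold lower, beside 7.33% and 4.78% of all genes. Serpina3g was 3.94-fold (2.56 to 6.30) higher, and Serpind1, heparin cofactor, was at 0.176-fold (0.0879 to 0.328). Among proteases, the membrane-bound Tmprss13 was 7.88-fold (4.72 to 14.1), the collagen-degrading cathepsin Ctsk 3.50-fold (2.86 to 4.32) and the plasminogen activator Plat 3.78-fold (2.43 to 6.12) higher. Ctsk, at 7.19 and 25.2 CPM here, was among the top 10 genes of the stromal cluster with 461 IL-1β cells. The stromal marker Col1a2 stood at 30.3 and 31.8 CPM in AT2-lineage cells, and the part of stromal RNA in these values was not tested. Of the 7 other inhibitors of the WAP, Kazal and Kunitz types, the structural relatives of Slpi and Spink5, none was past 2-fold higher, and Wfdc21 (0.280-fold, 0.213 to 0.366) and Wfdc17 (0.485-fold, 0.386 to 0.608) were past 2-fold lower. Wfdc21 was among the top 10 genes of an unnamed cluster of 13 cells, and Wfdc17 among those of 4 immune cells. Both clusters held control cells only, and the part of their RNA in the AT2-lineage and stromal values was not tested.

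In stromal cells, 13 of 45 such genes were at least 2-fold higher and 6 at least 2-fold lower in the IL-1β library, with a median log2 ratio of 0.72. Over all genes 4.34% were at least 2-fold higher and 11.4% at least 2-fold lower, with a median log2 ratio of -0.32. Among those higher were Serpinb2, another clade B serpin (1.29 against 25.7 CPM, with an interval of the ratio of 12.2 to 34.9), and Wfdc17, a WAP protein (14.6 against 140 CPM, 9.63-fold, 8.27 to 11.3). The cysteine cathepsin Ctsl went from 759 to 4402 CPM (5.80-fold, 5.68 to 5.93) and Serpine2, protease nexin, from 327 to 1263 CPM (3.86-fold). Lower in the IL-1β library were Wfdc21 (25.3 against 0.842 CPM), the secreted protease Prss23 (51.0 against 2.00 CPM), Prtn3 and tissue factor F3 (0.399-fold, 0.348 to 0.456). Wfdc17 lay on opposite sides of 1 in AT2-lineage and stromal cells, a difference that was not tested. Of 9 genes of the cathepsin list, 5 were past 2-fold higher and none lower, beside 4.34% and 11.4% of all genes.

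Between control AT1-like and IL-1β Hopx/Cldn4 cells, 9 of 34 such genes were at least 2-fold higher in the latter and 6 at least 2-fold lower, with a median log2 ratio of 0.16. Over all genes these shares were 5.17% and 3.88%, with a median log2 ratio of -0.02. Ctsc was 5.44-fold (4.98 to 5.96) higher, at 168 against 914 CPM, and the complement proteases C1ra (4.85-fold, 3.42 to 7.06) and C1s1 (3.70-fold, 2.37 to 6.03) and their inhibitor Serping1 (2.45-fold, 1.76 to 3.48) were higher with it. Spink4, a Kazal-type relative of Spink5, was at 61 UMIs in control AT1-like cells and 5 UMIs in Hopx/Cldn4 cells (0.0491-fold, 0.0154 to 0.121), and F3 (0.388-fold, 0.344 to 0.439) and the airway protease Tmprss2 (0.467-fold, 0.391 to 0.556) were lower too.

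**Figure D5:**
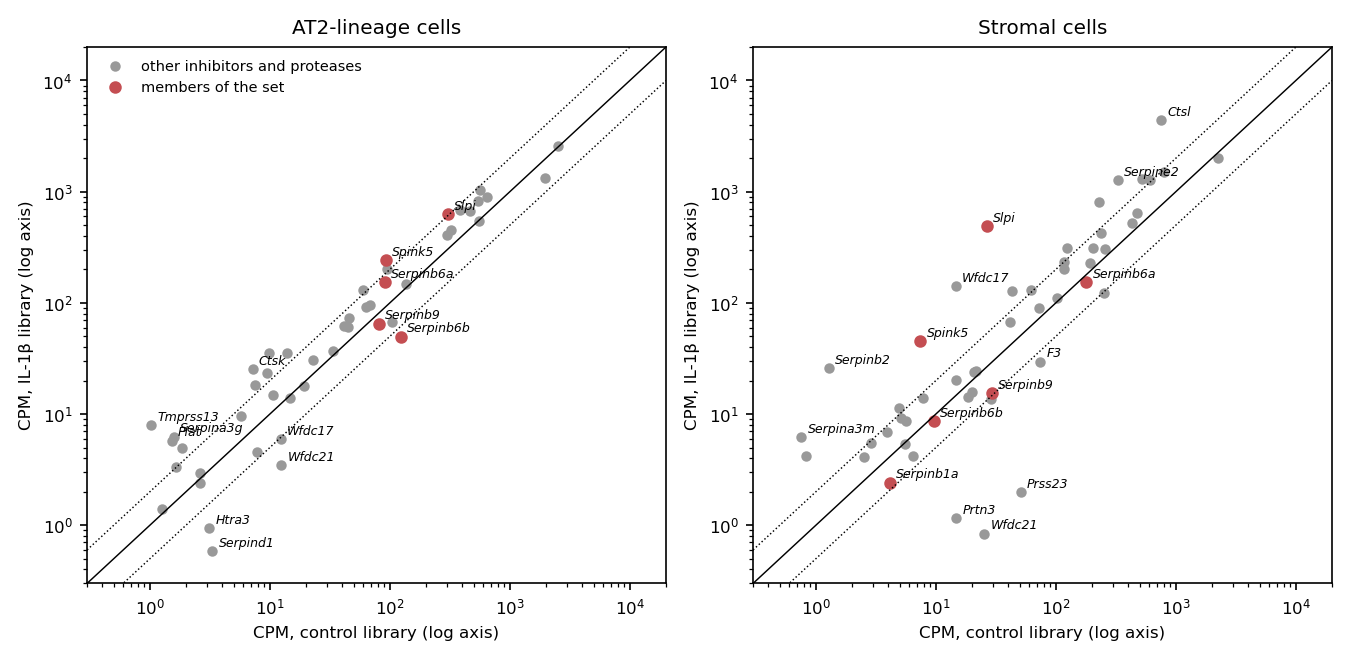
CPM in the control library (x axis) against CPM in the IL-1β library (y axis), both on log scales, of the inhibitor and protease genes with at least 50 UMIs in AT2-lineage cells (left) and stromal cells (right). Members of the set are red, other genes gray, the solid line is equality and the dotted lines are 2-fold, and Slpi, Serpinb2 and Wfdc17 lie farthest above it in stromal cells. Serpinb1a, with 48 UMIs, is not plotted on the left.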

How the data were processed

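Single-cell RNA-seq of control and IL-1β organoids was analysed, 1 library each. The authors deposited raw UMI counts per gene and barcode, made with Cell Ranger on GRCm38. The labels also name mm9 and Scanpy 1.3.6. The cutoffs of the methods were applied here (over 500 and under 7000 genes, over 2000 UMIs), and doublets scored by scrublet as run in scanpy with the published cutoffs numbered 3 of 5142 (0.0583%), a share so low that doublets must be taken as still present. After scaling each cell to 10000 counts and taking logarithms, 50 principal components and 15 neighbors gave Leiden clusters at a resolution of 1.0 (scanpy 1.11.5). The members and the other inhibitor and protease genes were left out of the clustering genes. A cluster took the name with the highest mean log2 fold of its markers, unless markers of another class led its top 10 genes, fewer than 3 markers were above the other cells, or it scored as cycling with no cycling marker leading. The clusters were known when this rule was written.

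Levels are summed UMIs per 1000000 UMIs (CPM) with exact Poisson 95% intervals, ratios have exact conditional binomial intervals, shares exact Clopper-Pearson ones, and 3 counts were the upper limit for a gene at 0. All cover counting error only, and no test was made. Ratios needed at least 50 cells in both libraries. Shares were also computed with every cell thinned to 4000 UMIs. The scripts for these intervals were tested on simulated data. The members and gene lists were chosen with earlier results of these data known. Genes named are the members, their 3 most alike genes, and of the lists those past 2-fold whose nearer interval limit lay among the 5 farthest from 1 in each direction, of which some are printed. One listed gene that met this rule is not reported here.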

Additional observations from a re-analysis of the deposited data

Results flagged for a closer look

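Serpinb1a and Serpinb6a were marked because their ratios between the libraries lie on opposite sides of 1 in AT2-lineage and in stromal cells, with neither interval holding 1. Serpinb1a was 4.12-fold (1.83 to 10.9) higher in IL-1β AT2-lineage cells, on 7 against 41 UMIs, and at 0.582-fold (0.342 to 0.963) in stromal cells, on 55 against 23 UMIs. With each library clustered separately, the first of these reversed to a log2 ratio of -0.53, on 36 control and 38 IL-1β UMIs. The single control Ccl20/Spib cell, outside the AT2 lineage in the reported clustering, held 29 UMIs of Serpinb1a. Serpinb6a was 1.69-fold higher in AT2-lineage and at 0.858-fold in stromal cells. The stromal cells include the cluster led by Acta2 and Tagln, with 111 control and 16 IL-1β cells. In its control cells Serpinb1a stood at 15.3 CPM and Serpinb6a at 280 CPM. In the largest other stromal cluster of each library (588 control and 461 IL-1β cells), Serpinb1a stood at 1.19 and 2.56 CPM. Serpinb6a stood at 155 and 150 CPM there. A further control cluster of 74 cells had them at 5.14 and 184 CPM. The part of this make-up in the stromal ratios was not tested. The difference between the cell types was not tested in either case.

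Values in small clusters outside the comparisons between libraries were marked where they lay above the level in all control epithelial cells. Serpinb1a at 1704 CPM, Serpinb6a at 224 CPM and Slpi at 658 CPM in the 35 Ccl20/Spib cells met this, as did Slpi at 595 CPM (497 to 705) in 9 airway secretory cells of the IL-1β library. Over all epithelial cells of the IL-1β library itself, Serpinb1a stood at 31.6 CPM, Serpinb6a at 172 CPM and Slpi at 574 CPM, the last within the interval of the airway secretory cells. For Serpinb1a, 1 cell holds 58.1% of the UMIs, and the level without it was 760 CPM. No cause was tested for any of these values.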

How the results depend on the processing

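Under 12 alternatives, 2 of them chosen after the data were seen, 96 of 138 log2 ratios of the members stayed within the counting interval of the reported value, 40 lay outside it with the same sign and 2 reversed. Values outside it follow, in AT2-lineage cells unless stroma is named. With each library clustered separately, log2 ratios were Serpinb1a -0.53, Serpinb6b -1.63, Serpinb9 -0.76, Slpi 0.75 and Spink5 3.51 in stroma. Over all epithelial cells, chosen after seeing the data, log2 ratios were Serpinb1a 4.07, Serpinb6a 0.56, Serpinb6b -0.74, Serpinb9 0.32, Slpi 1.16 and Spink5 1.24. Without the 5% of cells with the highest doublet scores, log2 ratios were Serpinb6a 0.65, Serpinb6b -1.93, Serpinb9 -1.16 and Spink5 1.81. Without surfactant, mitochondrial and ribosomal protein genes in the totals, log2 ratios were Serpinb6a 0.64, Serpinb6b -1.44, Serpinb9 -0.43, Slpi 0.93 and Spink5 1.27. At a resolution of 2.0, log2 ratios were Serpinb6b -1.59, Serpinb9 -0.6, Slpi 0.83 and Serpinb6a -0.12 in stroma. At a resolution of 0.5, log2 ratios were Serpinb6b -1.91, Serpinb9 -1.04, Slpi 0.98 and Spink5 1.79. With the members left among the clustering genes, log2 ratios were Serpinb6b -1.98, Serpinb9 -1.0, Slpi 0.8 and Spink5 1.6. With Louvain clustering, log2 ratios were Serpinb9 -0.14, Slpi 0.99 and Slpi 2.78 in stroma. With another random seed, log2 ratios were Serpinb9 -0.17, Slpi 0.93 and Spink5 1.21. With all deposited barcodes, log2 ratios were Serpinb9 -0.15. With the mean over cells, log2 ratios were Slpi 1.14, Spink5 1.27 and Slpi 4.56 in stroma. The reversals were Serpinb9 over all epithelial cells, and Serpinb1a with separate clustering, which then rests on 36 control and 38 IL-1β UMIs. In the reported clustering the control AT2-lineage cells held 7 UMIs of Serpinb1a. The single control Ccl20/Spib cell, outside that class, held 29. Among AT2-lineage, DATP-like, AT1-like and stromal cells alone, the class in which a member was highest in the IL-1β library was that of the reported clustering for 2.0 of the 6 members at a resolution of 2.0 and without the cells with the highest doublet scores, and for 3.0 of 6 with separate clustering. The number of IL-1β cells in the AT2 lineage ran from 1053 to 2064, and the cause of each move was not tested. No paired analysis was possible because there is 1 library per condition. Depth limits Serpinb1a most, with 48 UMIs in AT2-lineage cells.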
